A study of Mus musculus with 6 samples.

Results

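Cytosolic ribosomal proteins are the protein parts of the ribosomes that translate nuclear-encoded mRNAs. They are followed here in macrophages sorted out of liver tumours of mice given vehicle or PLX3397. Members were genes whose symbol begins with Rpl or Rps and a digit, together with Rplp0, Rplp1, Rplp2 and Rpsa, leaving out the Rps6k kinases. Each gene was read through its brightest probe set, a group of array probes, among those that the platform annotation gives exactly 1 symbol. This gave 65 of the 19938 genes measured. Of 77 standard ribosomal protein names, 54 had such a probe set and are called canonical below. A further 16 appeared only in probe sets with several symbols, and 7 in neither. The other 11 members were 6 paralogues, 4 retrogenes, pseudogenes or similar matches, and Rps19bp1, a nucleolar protein that binds Rps19 and is matched by its name only.

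The 6 arrays came from C57BL/6 mice with hepa1-6 cells, a mouse hepatoma line, implanted orthotopically in the liver, which the groups shared along with the tissue and the sort. In 3 samples the mice had received vehicle and in the other 3 PLX3397, a small molecule that blocks CSF1R, the receptor for macrophage colony-stimulating factor, along with KIT and FLT3. The labels state no genotype, age, dose or duration. Samples are labelled as biological replicates, but whether each is a separate animal is not said, and p-values here reflect the spread among these 6 samples alone, which may be technical. All 9 macrophage markers measured were above background on every array, with medians of 10.97 to 11.02 with vehicle and 11.19 to 11.21 with PLX3397. Of these, 2 rose and 4 fell. Background was set on each array from 1190 olfactory and vomeronasal receptor genes, as their 95th percentile, at 3.52 to 3.58. Of the members, 61 exceeded it on all 6 arrays and 2 on none. Levels are log2 signals as deposited, changes are PLX3397 minus vehicle, and a gene is called when its limma p-value, adjusted over all 19938 genes, is under 0.05.

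The small ribosomal subunit decodes the mRNA, and the large subunit joins amino acids. The stalk formed by Rplp0, Rplp1 and Rplp2 on the large subunit recruits translation factors. Ribosomal protein mRNAs of mammals begin with a pyrimidine stretch at their cap, the terminal oligopyrimidine (TOP) motif, through which the growth kinase mTORC1 and the RNA-binding protein LARP1 control their translation and stability. Most of these genes have many processed pseudogenes, and probes can be shared with them.

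The canonical genes were lower with PLX3397 as a group, in both subunits. Of all 65 members, 40 fell and 5 rose, where 18.3% of all genes were called lower, 19.6% higher and 37.8% in either direction. Rpl10a, a protein of the large subunit's mobile stalk at the tRNA exit side, had the largest fall, 2.50-fold. Rpl41, a very short and basic large-subunit protein, and Rplp0 rose, while Rpsa, Rps2 and Rps3 moved little. The median change of the members was -0.38 (interquartile range -0.60 to -0.18) beside 0.04 for all genes. The range ran from -1.32 to 0.37, with 56 changes negative and 9 positive. A fall of more than 0.5 log2 was found in 23 members, or 35.4%, beside 11.4% of all genes, and a fall of more than 1 log2 in 2. These counts describe the list and do not test it.

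The member median was 10.06, 9.9998 and 10.08 on the vehicle arrays and 9.67, 9.67 and 9.55 on the PLX3397 arrays. For the 54 canonical genes it was 10.45, 10.38 and 10.48 with vehicle and 9.88, 9.87 and 9.86 with PLX3397. The arrays of the groups were thus apart on both medians. All 3 vehicle arrays lay above all 3 PLX3397 arrays in 46 members and below them in 4, while 15 overlapped, and the same held in 21.9% and 27.4% of all genes, or 49.3% together. The spread between arrays was small against these gaps, with a median SD over canonical genes of 0.07 in the vehicle group and 0.10 in the PLX3397 group (n = 3 each). PLX3397 replicate 3 was the lowest array of its group in 39 of the 54 canonical genes, and vehicle replicate 2 the lowest of its group in 41. An array reports signal relative to the other transcripts hybridised to it, so fewer transcripts per cell and a change in the mixture of sorted cells cannot be told apart.

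**Figure D1:**
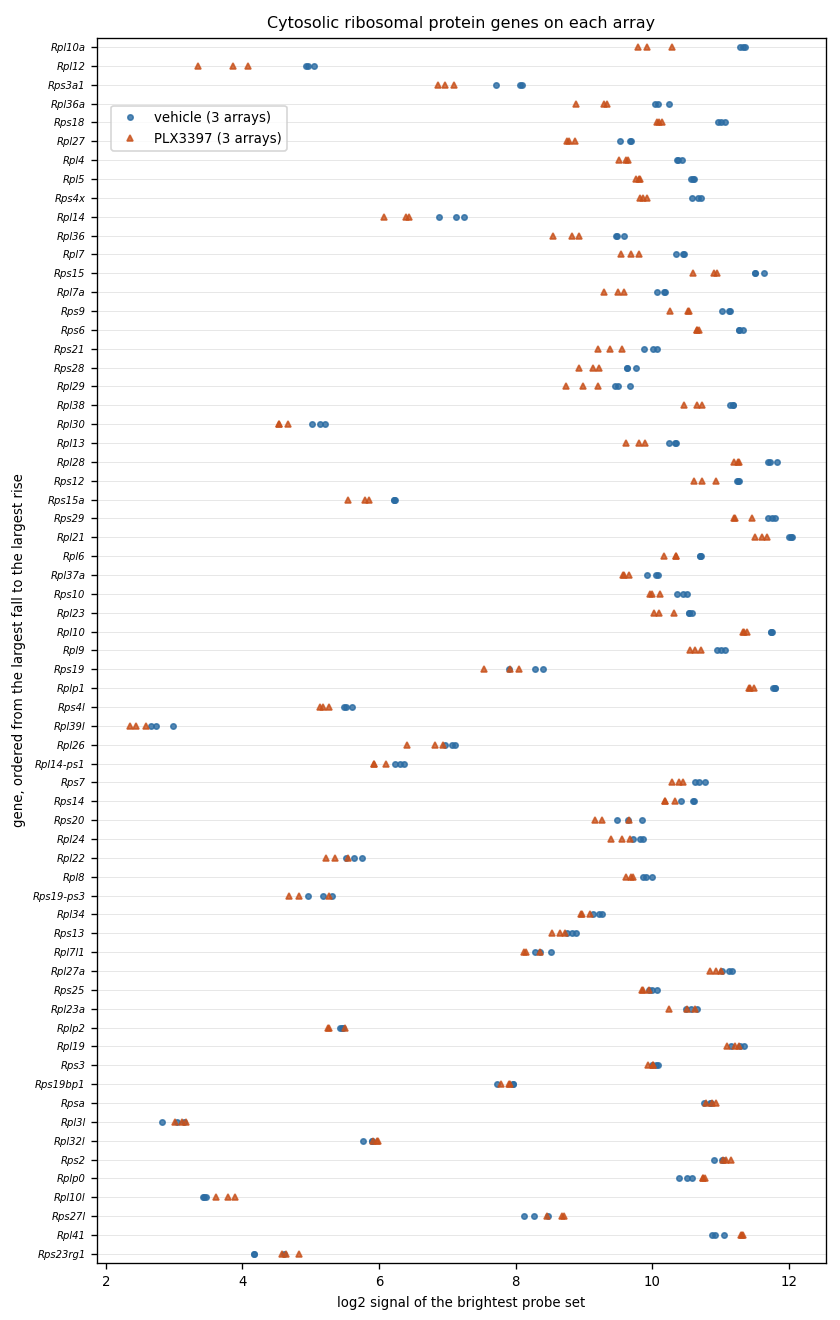
Log2 signal (x axis) of each of the 65 members (y axis, from the largest fall to the largest rise) on the 3 vehicle arrays (circles) and the 3 PLX3397 arrays (triangles). In 46 genes every vehicle array lies to the right of every PLX3397 array, and in 4 the order is the other way round.

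Start regions of 13 canonical genes are printed to show a pyrimidine run, or its lack, beside falls, rises and small changes. They were picked with both the changes and the runs known. Rps18, Rpl14 and Rps6 fell and have a pyrimidine run across the annotated start, and Rpl4 fell and has its run just upstream. Rpl27a and Rpl34 have longer runs, of 20 bases, and were not called through their brightest probe set. For Rpl27a, 7 of its 9 probe sets were called lower. Rpl10a and Rps3a1 fell with no run of 8. Cap sites were not measured here, so a missing run near an annotated start does not show that a gene lacks a TOP motif. Rpl41 and Rplp0 rose, and Rpsa, Rps2 and Rps3 changed little. Each window holds 40 bases before and 20 bases after the annotated start, 5′ to 3′ on the gene's strand, from RefSeq on build GRCm38.p6. Capitals mark the longest run of C and T within 20 bases of the start.
Rps18 (chr17:33955646-33955705, minus strand): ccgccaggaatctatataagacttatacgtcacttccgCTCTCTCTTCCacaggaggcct
Rpl4 (chr9:64173347-64173406, plus strand): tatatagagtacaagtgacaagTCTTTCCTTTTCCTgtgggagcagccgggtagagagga
Rpl14 (chr9:120571477-120571536, plus strand): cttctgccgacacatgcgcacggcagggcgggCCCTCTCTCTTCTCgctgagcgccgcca
Rps6 (chr4:86857348-86857407, minus strand): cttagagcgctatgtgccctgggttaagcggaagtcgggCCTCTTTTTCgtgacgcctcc
Rpl27a (chr7:109519155-109519214, plus strand): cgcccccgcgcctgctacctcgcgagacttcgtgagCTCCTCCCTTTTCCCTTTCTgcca
Rpl34 (chr3:130730318-130730377, minus strand): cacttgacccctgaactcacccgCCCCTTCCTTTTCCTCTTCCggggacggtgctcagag
Rpl10a (chr17:28328431-28328490, plus strand): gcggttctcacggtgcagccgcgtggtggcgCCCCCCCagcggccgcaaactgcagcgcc
Rps3a1 (chr3:86142649-86142708, minus strand): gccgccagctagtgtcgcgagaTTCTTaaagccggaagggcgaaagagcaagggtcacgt
Rpl41 (chr10:128549149-128549208, minus strand): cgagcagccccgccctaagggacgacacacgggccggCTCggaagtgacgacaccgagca
Rplp0 (chr5:115559427-115559486, plus strand): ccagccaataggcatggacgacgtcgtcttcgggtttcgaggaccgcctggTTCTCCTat
Rpsa (chr9:120127726-120127785, plus strand): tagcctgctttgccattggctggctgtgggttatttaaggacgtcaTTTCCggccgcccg
Rps2 (chr17:24720023-24720082, plus strand): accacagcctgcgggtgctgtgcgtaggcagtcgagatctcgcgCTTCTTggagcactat
Rps3 (chr7:99483690-99483749, minus strand): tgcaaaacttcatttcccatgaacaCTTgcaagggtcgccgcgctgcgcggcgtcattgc

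Of the 65 members, 51 matched an entry of the RefSeq promoter table by gene identifier or symbol, 43 of them canonical. A run of at least 8 pyrimidines within 20 bases of a start was present in 18 of the 43, or 41.9%, beside 18.4% of all 27025 genes in the table. Among the 15614 table genes measured on the arrays the share was 18.5%. These 18 genes had a median change of -0.52, with 13 lower and 0 higher. The 25 without such a run had a median of -0.39, with 15 lower and 2 higher. The 5 genes with such a run that were not called through their brightest probe set were Rpl27a, Rpl34, Rps25, Rpl19 and Rplp2. Their runs were of 20, 20, 12, 11 and 10. Rpl10a and Rps3a1 fell further than Rps18 with runs of 7 and 5. The letters CCGGAAG, the core bound by ETS family factors, were searched on both strands of the 300 bases around each start, from 250 before to 50 after. They were found in 17 of the 43, or 39.5%, beside 9.93% of all genes in the table and 13.6% of those measured on the arrays. The 17 genes had a median change of -0.31, and the 26 others had one of -0.52. On the opposite strand this motif reads CTTCCGG and can overlap a pyrimidine run. The letters TATAAA were found in 5 of the 43, or 11.6%, beside 15.7% in the table and 13.6% of those measured on the arrays. A match is a string of letters, and none of these splits was tested.

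Among small-subunit genes, 14 of the 21 measured fell and 0 rose, with a median change of -0.47. Rps3a1, a small-subunit protein near the mRNA exit, read 8.10, 7.72 and 8.06 on the vehicle arrays and 7.10, 6.97 and 6.87 on the PLX3397 arrays. Every treated array was below every control array, and the change was -0.98 (SE 0.11, limma adjusted p = 7.32e-05). Rps18, a protein of the small subunit's head, read 11.06, 10.96 and 11.01 with vehicle and 10.15, 10.07 and 10.09 with PLX3397. Its replicates lay close together in both groups, and the change was -0.91 (SE 0.08, limma adjusted p = 7.99e-06). Rps4x, encoded on the X chromosome, read 10.68, 10.58 and 10.71 with vehicle and 9.82, 9.92 and 9.86 with PLX3397. Its groups were also apart, with a change of -0.79 (SE 0.08, limma adjusted p = 2.45e-05).

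Rps6 is the ribosomal substrate of the S6 kinases and was picked for that role. It read 11.27, 11.27 and 11.33 with vehicle and 10.68, 10.65 and 10.65 with PLX3397. The groups were apart, and the signal was 64.6% of vehicle (change -0.63, SE 0.07, limma adjusted p = 7.87e-05). The 14 small-subunit genes that fell had changes from -0.98 to -0.31. None of them overlapped between groups, which the call itself makes likely.

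Several small-subunit genes changed little, and those named here were picked after their values were seen. Rpsa, the laminin-receptor protein of the small subunit, read 10.85, 10.76 and 10.86 with vehicle and 10.87, 10.79 and 10.93 with PLX3397. The groups overlapped, and the 95% interval of its change (0.04) was -0.14 to 0.22. Rps2, near the mRNA entry, had a change of 0.10 with an interval of -0.08 to 0.28, and its 3 probe sets ranged from -0.02 to 0.33. With arrays centred on their medians the changes of Rpsa and Rps2 turned to -0.09 and -0.03. Rps3, also at the mRNA entry, had a change of -0.06 with an interval of -0.23 to 0.11. Each of these intervals lies above the change of every small-subunit gene called lower. Rps19, the gene most often mutated in Diamond-Blackfan anaemia, and Rps20 were not called either, at -0.36 (limma adjusted p = 0.097) and -0.30 (limma adjusted p = 0.125). Their intervals were wide, from -0.71 to -0.02 and from -0.61 to 0.01. Rps20 passed the threshold without PLX3397 replicate 2, at -0.45 (limma adjusted p = 0.016).

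**Figure D2:**
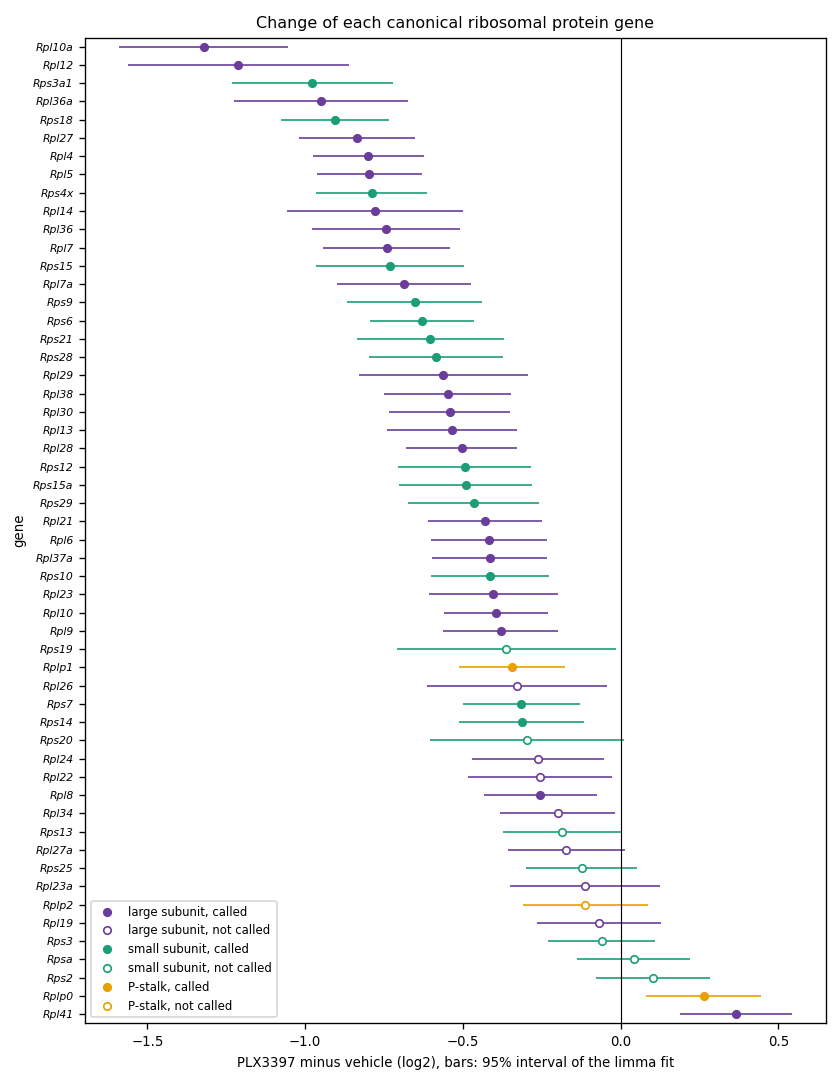
Change of each of the 54 canonical genes (x axis, log2, PLX3397 minus vehicle) with the 95% interval of the limma fit, coloured by subunit; filled points were called at an adjusted p under 0.05. The points run from -1.32 for Rpl10a to 0.36 for Rpl41, and 37 filled points lie left of 0 and 2 to the right.

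Of the 30 large-subunit genes measured, 22 fell and 1 rose, and their median change was -0.47. Rpl10a read 11.29, 11.33 and 11.37 with vehicle and 10.29, 9.80 and 9.93 with PLX3397. The vehicle arrays agreed closely and the treated arrays spread over 0.26 (SD), all below vehicle, with a change of -1.32 (SE 0.12, limma adjusted p = 1.29e-05). The changes of its 4 probe sets ran from -1.47 to -1.31.

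Rpl4 and Rpl5 are early-joining proteins of the large subunit, and Rpl5 also binds and inhibits Mdm2 together with Rpl11. Rpl4 read 10.37, 10.44 and 10.38 with vehicle and 9.65, 9.62 and 9.52 with PLX3397. Rpl5 read 10.59, 10.57 and 10.61 with vehicle and 9.81, 9.82 and 9.76 with PLX3397. Both genes were separated between groups with a change of -0.80, and limma gave adjusted p = 2.20e-05 for Rpl4 and 1.53e-05 for Rpl5. The 5 probe sets of Rpl5 ranged from -0.81 to -0.68.

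Rpl36a, near the tRNA exit site of the large subunit, read 10.03, 10.08 and 10.24 with vehicle and 9.29, 9.33 and 8.88 with PLX3397. All treated arrays were lower, replicate 3 most of all, and the change was -0.95 (SE 0.12, limma adjusted p = 0.00015). Rpl27 read 9.69, 9.53 and 9.68 with vehicle and 8.78, 8.87 and 8.75 with PLX3397, a change of -0.84 (SE 0.08, limma adjusted p = 2.25e-05) with groups apart. Rpl14 read 6.87, 7.12 and 7.25 with vehicle and 6.44, 6.39 and 6.07 with PLX3397, a change of -0.78 (SE 0.13, limma adjusted p = 0.00065). Its replicates scattered more than those of Rpl27, and its groups did not overlap. Rpl36 and Rpl7, both on the surface of the large subunit, each fell by 0.74 on the log2 scale, with limma adjusted p = 0.00027 and 9.58e-05.

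Rpl12, a protein at the base of the P-stalk, read 4.93, 5.04 and 4.96 with vehicle and 4.08, 3.86 and 3.35 with PLX3397. The change was -1.21 (SE 0.16, limma adjusted p = 0.00015), but this probe set was dim, and PLX3397 replicate 3 was at background. The 22 large-subunit genes that fell had changes from -1.32 to -0.25. No such gene overlapped between groups, which the call itself makes likely. The 7 not called lay between -0.33 and -0.07. Of these, 4 are named after their values were seen. Rpl24, at -0.26, missed the threshold narrowly (limma adjusted p = 0.0504), and 2 of its 3 probe sets were called lower. Rpl27a and Rpl23a were not called through their brightest probe set, at -0.17 and -0.11, while 7 of 9 and 5 of 13 of their probe sets were called lower. Rpl19, with a change of -0.07, had an interval of -0.26 to 0.13.

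Rpl41 was the canonical gene with the largest rise. It read 10.93, 10.88 and 11.04 with vehicle and 11.30, 11.33 and 11.31 with PLX3397. The groups were apart, and the change was 0.36 (SE 0.08, limma adjusted p = 0.0046), or 129% of vehicle. Its 3 probe sets carry identical values and count as 1 measurement. The call was lost under centring of the arrays on their medians (0.23, limma adjusted p = 0.051).

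The P-stalk genes moved apart from each other. Rplp0, the stalk's anchor on the ribosome and a common reference gene in PCR, read 10.58, 10.39 and 10.51 with vehicle and 10.75, 10.77 and 10.74 with PLX3397. The treated arrays were all higher, with a change of 0.26 (SE 0.08, limma adjusted p = 0.028). Its other probe set changed by 0.09, and its call was lost without vehicle replicate 2 (limma adjusted p = 0.098), vehicle replicate 3 (0.064), PLX3397 replicate 1 (0.065) or PLX3397 replicate 2 (0.065), and under centring (0.13, limma adjusted p = 0.249). Rplp1, a factor-binding protein of the stalk, read 11.79, 11.77 and 11.80 with vehicle and 11.42, 11.49 and 11.43 with PLX3397. It fell in every treated array, by 0.34 on the log2 scale (SE 0.07, limma adjusted p = 0.0044). Rplp2, its partner, was dim at 5.45 ± 0.02 and 5.34 ± 0.14 (SD, n = 3 each) and overlapped, with a change of -0.11 (limma adjusted p = 0.365).

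Of the 6 paralogues, 2 rose and 2 fell. Rps27l, a paralogue of Rps27 that is known as a p53 target, read 8.47, 8.13 and 8.27 with vehicle and 8.71, 8.68 and 8.46 with PLX3397. The lowest treated array lay just under the highest control array, and the change was 0.32 (SE 0.11, limma adjusted p = 0.039). Rpl10l, the testis paralogue of Rpl10, read 3.42, 3.44 and 3.47 with vehicle, at background on all 3 arrays, and 3.79, 3.89 and 3.61 with PLX3397. It was at least 1.18-fold higher with PLX3397 (limma adjusted p = 0.017), taking the background level as the floor.

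Rps4l, a paralogue of Rps4x, fell from 5.53 ± 0.06 to 5.20 ± 0.07 (SD, n = 3 each), a change of -0.34 (limma adjusted p = 0.0075), but its other probe set changed by 0.06. Rpl39l, another testis paralogue, was at background on all 6 arrays, at 2.79 ± 0.17 and 2.46 ± 0.11, and its call as lower (limma adjusted p = 0.030) has no measured level on either side. Rpl3l, the striated-muscle paralogue of Rpl3, was also at background throughout, with a change of 0.10 (limma adjusted p = 0.502). Rpl7l1, a nucleolar paralogue of Rpl7, had a change of -0.18 (interval -0.40 to 0.04).

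Among the remaining matches, Rps23rg1, a retrogene of Rps23, rose by 0.37 with overlapping groups (limma adjusted p = 0.043), and Rpl14-ps1 fell by 0.32 on the log2 scale (limma adjusted p = 0.015). Rps19-ps3, Rpl32l and Rps19bp1 were not called, at -0.22, 0.10 and -0.02. The 5 rises in the list lay between 0.26 and 0.37, and leaving out 1 array changed their number. It was 3 without vehicle replicate 1, 2 without vehicle replicate 2, 3 without vehicle replicate 3, 1 without PLX3397 replicate 1, 1 without PLX3397 replicate 2 and 4 without PLX3397 replicate 3. The member that kept its call in all 6 was Rpl41. The number of falls stayed between 35 and 42.

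Different probe sets of the same gene gave similar changes. The 65 members had 221 probe sets with 1 symbol, 12 of which repeat the values of another of the same gene. In the 39 genes with at least 2, the SD of the change within a gene was 0.07, against 0.34 between gene means. In 36 of these genes all probe sets had the same sign, and the 3 that differed were Rpsa, Rps2 and Rps4l. Of 29 such genes called lower, 27 had every probe set called lower. These figures of agreement count the repeats, which agree by construction. Fitted separately, 165 of the 221 were lower and 8 higher, where 19.1% and 19.0% of all probe sets with 1 symbol were. Rps6 showed 8 probe sets from -0.90 to -0.63, so its brightest probe set had the smallest fall. Probe sets of 1 gene can share probes with each other and with pseudogenes, and are not replicates of the treatment.

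**Figure D3:**
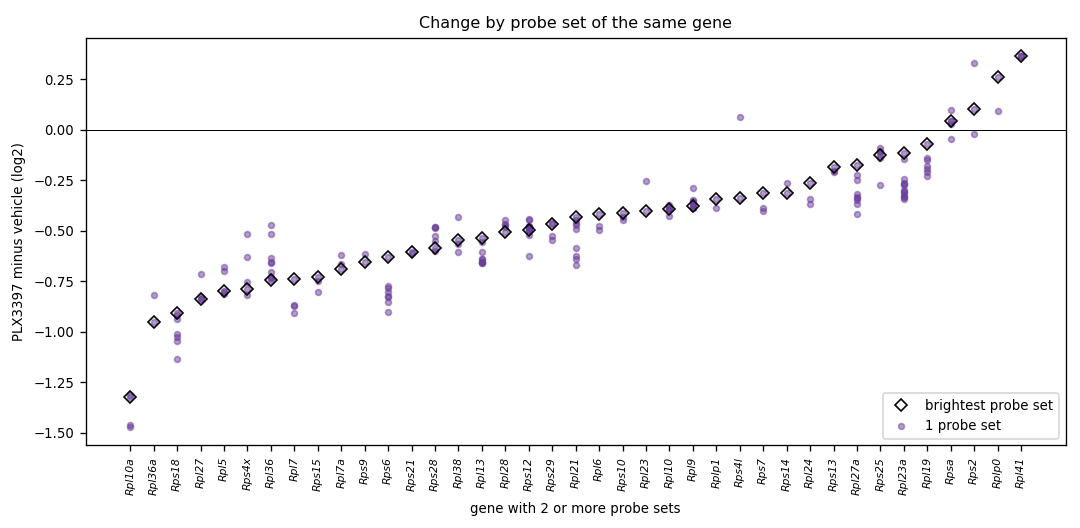
Change (y axis, log2, PLX3397 minus vehicle) of every probe set with 1 symbol in the 39 members that have at least 2, ordered by the brightest probe set (diamonds); small points are single probe sets. Points of a gene cluster with a within-gene SD of 0.07, repeated values counted, and 3 genes have points on both sides of 0.

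The canonical genes spanned a wide range of signal. Pearson's r between the vehicle mean of a gene and its change was 0.11 and Spearman's rho 0.03 over 54 genes, which share the same arrays. Over all 65 members r and rho were -0.25 and -0.23. The vehicle mean is also subtracted to give the change, so the quantities are linked by construction. Of 30 members with a mean level of at least 10, 22 were lower and 2 higher, with a median change of -0.42. Of the 344 other genes at that level, 20.9% were lower and 41.9% higher, with a median of 0.14. Of the 18 members between 8 and 10, 10 were lower and 1 higher, where 33.8% and 32.3% of the 1583 other genes in that range were. Of the 17 members under 8, 8 were lower and 2 higher, with a median change of -0.32. Of all genes, 3.48% were lower at a level under 4, 18.4% at 4 to 6 and 39.3% at 6 to 8. In the same ranges 7.86%, 28.5% and 23.9% were higher.

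**Figure D4:**
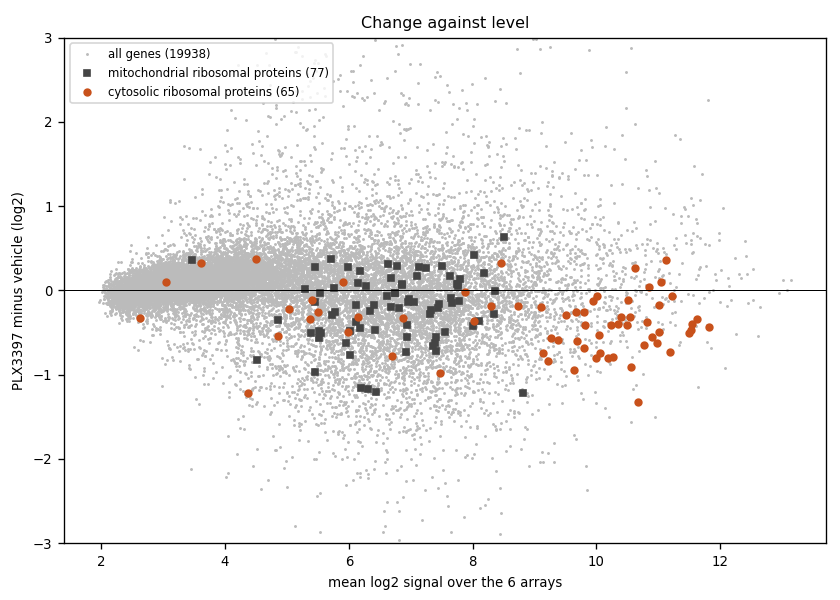
Change (y axis, log2, PLX3397 minus vehicle) against mean log2 signal over the 6 arrays (x axis) for all 19938 genes (grey), 77 mitochondrial ribosomal protein genes (squares) and the 65 cytosolic members (circles); 105 genes lie beyond the plotted range of 3 on either side. The cytosolic members lie mostly below 0, with a median of -0.38, and 17 of the 65 have a mean level under 8.

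Genes that act beside the ribosomal proteins were counted in the same fit. Fau, whose product is a ubiquitin-like peptide fused to a small-subunit protein, was the constituent outside the name rule that could be read. It fell from 10.60 ± 0.03 to 10.22 ± 0.17 (SD, n = 3 each), a change of -0.39 (limma adjusted p = 0.0092). Of 17 translation factors and other TOP mRNAs, 11 fell (64.7%) and 1 rose (5.88%), with a median change of -0.37. Of all genes at a level of 8 to 10, where their median lies, 34.0% were lower and 32.0% higher. Eef1a1, which brings tRNAs to the ribosome, fell by 0.92 on the log2 scale (limma adjusted p = 6.98e-06), and Npm1, Naca, Eif3a and Eif3e fell by 1.55, 1.06, 0.97 and 0.96. Eef1a1, Eef2 and Tpt1 were picked for their roles or after their values were seen. Eef2, which moves the ribosome along the mRNA, had a change of 0.00, and Tpt1, another TOP mRNA, rose by 0.25 (limma adjusted p = 0.046).

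Ribosome biogenesis genes, which make and fold ribosomal RNA and join the proteins to it, were mostly lower. Their list also holds Npm1, which is counted among the TOP mRNAs too. Of 33 biogenesis genes measured, 26 fell (78.8%) and 1 rose (3.03%), with a median change of -0.59. Of all genes at a level of 6 to 8, where their median lies, 39.3% were lower and 23.9% higher. Among the biogenesis genes Nop58, a core protein of methylation-guide RNA particles, fell by 2.12, Wdr43 by 1.99 and the nucleolar protein Ncl by 1.73 on the log2 scale. In the list of late assembly and quality control, 8 of 15 fell (53.3%) and 1 rose (6.67%), with a median level in the same range. The largest falls there were those of Ltv1, which matures the small subunit (-1.40), and Nmd3, which exports the large subunit (-1.33), with limma adjusted p = 1.08e-05 and 1.47e-06. The 77 mitochondrial ribosomal protein genes, whose products translate the mitochondrial genome, had a median change of -0.17, with 29 lower (37.7%) and 7 higher (9.09%). Of all genes at a level of 6 to 8, where their median lies, 39.3% were lower and 23.9% higher. No test of the difference between these lists and the cytosolic members was run.

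Regulators of the family went both ways. Of 14 mTORC1, S6 kinase and TOP regulators, 4 rose (28.6%) and 6 fell (42.9%). Of all genes at a level of 6 to 8, where their median lies, 23.9% were higher and 39.3% lower. The shares of the regulators are thus near those of other genes. Rheb, the activator of mTORC1, fell from 9.15 ± 0.02 to 8.11 ± 0.11 (SD, n = 3 each), a change of -1.04 (limma adjusted p = 6.01e-06). Larp1, which binds TOP mRNAs, fell by 0.58 and the cap-binding factor Eif4e by 0.61 on the log2 scale, with limma adjusted p = 0.00025 and 0.00038. Deptor, an inhibitor of mTORC1, rose by 0.79 (limma adjusted p = 1.93e-05). Of 3 p90 kinases measured, Rps6ka3 fell by 0.49 on the log2 scale. Of 10 p53 targets, 1 fell (Sesn1, -0.52) and 0 rose. Of all genes at a level of 4 to 6, where their median lies, 18.4% were lower and 28.5% higher. Mdm2, picked as the protein bound by free Rpl5, had a change of -0.25 (limma adjusted p = 0.110).

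**Figure D5:**
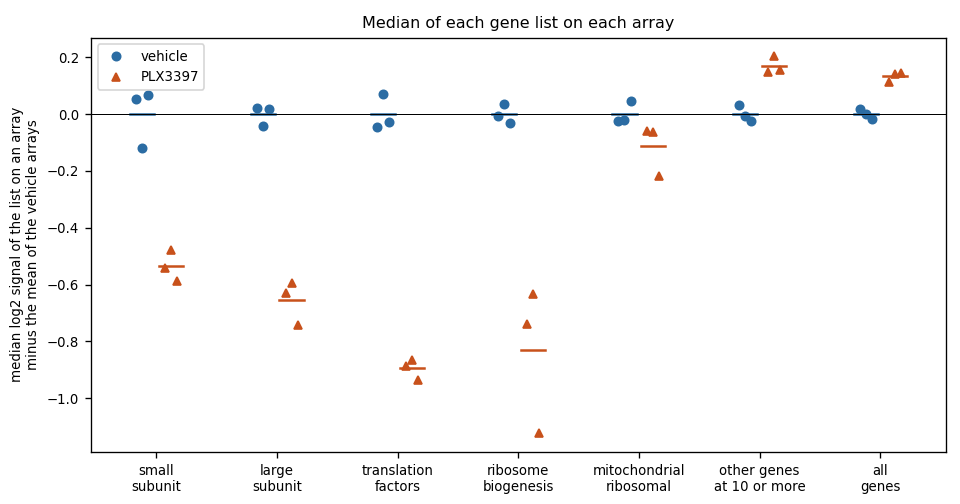
Median log2 signal of each gene list on each array, minus the mean of the 3 vehicle arrays (y axis), for the lists named on the x axis; circles are vehicle, triangles PLX3397 and short lines group means. The 3 treated arrays of both subunits lie between -0.74 and -0.48, and those of the mitochondrial ribosomal genes between -0.22 and -0.06.

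On the arrays the large-subunit median moved by -0.63, -0.59 and -0.74, and the small-subunit median by -0.54, -0.48 and -0.59. Bright genes that are no members moved up by 0.15 to 0.20. Markers of some other cells also moved in these samples. Of 5 T cell, 5 NK cell and 2 erythroid markers, 0 were called. Of 6 endothelial markers 4 were higher, with a summed signal of 7.18 to 7.31 on the log2 scale with vehicle and 8.67 to 8.72 with PLX3397, and Tek at background on all arrays. Of 9 neutrophil markers 4 were higher, with summed signals of 11.48 to 11.50 and 11.96 to 12.46, and Ly6g, Elane, Ltf and Cxcr2 at background. The calls of Ltf and Ly6g thus have no measured level, and the others were Mmp9, which carries most of the sum, and S100a8. Of 6 dendritic cell markers 2 were higher, with summed signals of 6.23 to 6.36 and 7.55 to 8.52, and Xcr1, Clec9a and Siglech at background. The 2 were Ccr7 (change 3.35), which carries most of the sum with PLX3397, and Zbtb46 (0.39). Of 7 hepatocyte and hepatoma markers 0 were called, with summed signals of 6.13 to 6.28 and 6.26 to 6.29, and Alb, Apob, Fgb and Ttr at background. Of 5 B and plasma cell markers 3 were higher, with summed signals of 5.89 to 5.96 and 6.18 to 6.38, and Cd79a, Ms4a1 and Jchain at background, so that Cd79b was the rise with a measured level. Of 7 fibroblast and stellate cell markers 2 were lower, with summed signals of 8.96 to 9.49 and 9.01 to 10.27 and none at background on all arrays. The part of these cells in the fall of the ribosomal protein genes was not tested.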

How the data were processed

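Values for 6 Affymetrix Mouse Gene 1.0 ST arrays were deposited by the authors on the log2 scale, by probe set, the base being read from the values. Per the labels' protocols, macrophages were sorted by flow cytometry and their total RNA was amplified and biotin-labelled. The submitters' processing notes name MAS5. How probes were summarised and arrays normalised is not given in the sources used here, and scanner files were not used, so no batch was tested. The groups follow the sample titles. The description field also holds second names for macrophages stimulated in culture, with a different stimulus in each group. These names go against the titles, sources and treatments and were not used, so the record conflicts on what the groups are.

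Of 28941 probe sets, 21789 have 1 symbol, 1621 several and 5531 none, and 21698 of the first kind matched a RefSeq gene record by Entrez identifier. The brightest probe set represented a gene, which mattered for 999 genes. A two-sided fit with group as its single term (functions lmFit and eBayes of limma 3.58.1, run in R 4.3.3) compared the groups, with Benjamini-Hochberg adjustment over 19938 genes. Precision is limited by the number of arrays, 3 in each group, for which an exact permutation test of 1 gene cannot go below p = 0.1. Members and gene lists were chosen with earlier results of these data known. Named were the 12 largest rises and falls among called members with groups apart, the P-stalk genes, paralogues and ubiquitin fusion genes, and 2 to 4 members of each other list with the largest called change, besides genes said to be picked otherwise.

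Data were simulated with the spread of these arrays. Of 67 genes shifted by 0.5 log2, 47.8% were called, as were 92.5% of 67 shifted by 1. Of 66 shifted by 2, 98.5% were called, with 2 false calls among 161 in all. The genes shifted were a far smaller share than the 37.8% called in the real data. Benjamini-Hochberg adjustment is stricter with fewer shifted genes, so these shares may be too low for the real data. Alternatives covered normalisation, probe set choice, filters, variance model, threshold, the replicate number as a block and leaving out each array. Samples with the same replicate number did not deviate together over all genes, which does not show that they were unpaired. Figures were drawn with matplotlib 3.10.9.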

Additional observations from a re-analysis of the deposited data

Results flagged for a closer look

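Probe sets with several symbols were left out of the gene counts. Of 239 that carry the name of a member among their symbols, 4 were higher with PLX3397 and 179 lower in a limma fit over all 28941 probe sets, where 17.3% were higher and 17.4% lower. Their median change was -0.50. The 4 are listed because they are rises in probe sets that the gene counts do not use, and their share is below that of all probe sets. No gene is named for them, since a probe set with several symbols cannot be given to 1 of them.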

How the results depend on the processing

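The 12 largest falls kept their direction and their call under all alternatives run for them, as did Rplp1. The count of members called lower, 40 as deposited, was 38 after quantile normalisation and 50 with arrays centred on their medians, and 35 to 42 when 1 array was left out. Testing all probe sets with 1 symbol gave 165 lower and 8 higher with a median change of -0.46, and including those with several symbols gave 348 lower and 13 higher with a median of -0.48, since these count probe sets. A filter at a mean level of 10 left 23 lower and 2 higher of fewer genes. The count of rises, 5 as deposited, was 3 after quantile normalisation, 0 with arrays centred, 3 with a filter at a level of 5, 1 at an adjusted p under 0.01 and 2 among canonical genes, and 1 to 4 when 1 array was left out. Centring moved the median of all genes from 0.04 to -0.09 and the median of the members to -0.51, and 25.9% of all genes were then lower and 11.4% higher, so directions near 0 depend on the scaling. Leaving out 1 array gave member medians of -0.44 to -0.36. Rps4l reversed to 0.062 with its dimmest probe set, and Rps2 was then called higher (0.33, limma adjusted p = 0.015). These dimmest probe sets, and centring on other bright genes (41 lower, 5 higher), were tried after the data had been seen. Whether the replicate numbers pair the arrays is not known. Deviations from group means correlated at -0.0104, 0.0080 and -0.0133 over all genes for numbers 1, 2 and 3. Over the members they correlated at 0.12, -0.15 and -0.12. With 3 arrays in each group these values cannot settle a pairing. The replicate block gave 40 lower, 39 of them shared with the unblocked fit, and 4 higher, Rplp0 being lost (limma adjusted p = 0.051). Signals near background limit Rpl12, Rpl10l, Rpl3l and Rpl39l, and shared probes limit all members. The cause of the other moves was not tested.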
